A study of Arabidopsis thaliana with 24 samples.

Results

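The genes described here are those whose transcripts were at much higher signal after a day in mannitol than near its start in shoots of Arabidopsis thaliana, while in roots the same transcripts were at nearly the same signal at both times. They were chosen on the scale log2(signal + 8), where signal is the linear array value of a probe set (the group of short probes that measures 1 transcript), from the means of the 2 arrays per group. A gene was taken when its probe set named exactly 1 gene, its highest group mean signal was at least 50, its shoot value at 24 h exceeded that at 0.5 h by at least 2.5, and its root value at 24 h differed from that at 0.5 h by no more than 0.5 in either direction. Of 22746 probe sets, 13513 named exactly 1 gene in the annotation used (13356 genes in all), 7563 of these reached the signal minimum, and 223 of those met the shoot condition. Roots were above 0.5 for 149 of the 223 and below -0.5 for 7, which left 67 probe sets, each for a different gene. All 67 passed the filter on low signal used for testing.

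The plants were of the accession Col-0, 16 days old, grown on rafts on Murashige and Skoog medium under 16 h of light per day. Mannitol, a sugar alcohol that lowers the water potential around the root, was brought to 300 mM in the medium 3 h into the light period, and every plant analysed here received it. Shoots and roots were taken at 0.5, 1, 3, 6, 12 and 24 h of mannitol, and each of the 12 groups has 2 arrays, 24 in all. Untreated plants were not analysed here, so every change below is a change over time in mannitol. The samples of 0.5 h and 24 h, which chose the members, were taken at nearly the same time of day, while from 1 h to 12 h, the times tested, time in mannitol and time of day cannot be told apart. Whether the 2 arrays of a group stand for separate cultures is not stated in the labels, and p-values here cover only the spread between these arrays.

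Osmotic stress draws water out of plant cells, and the hormone abscisic acid, which rises in leaves that lose water, switches on genes that protect the cell. Well-known products of such genes are the late embryogenesis abundant proteins, which are hydrophilic and accumulate in drying seeds and stressed leaves, enzymes that build cuticular wax or modify the cell wall, and protein phosphatases and transcription factors that adjust the response itself. Roots meet the mannitol directly, whereas shoots meet it through the water supply from the root. The annotation used gave 56 of the 67 genes by locus name only, and the roles stated for these are background knowledge of the Arabidopsis gene families. A role was given for 39 genes, and the role groups were formed after the values had been seen.

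Over the 16814 probe sets that passed the filter on low signal, the 2 arrays of a group had a Pearson's r between 0.973 and 0.983 in log2(signal + 8). No replicate pair was identical. Array medians lay between 31.4 and 48.3, and 20.5% of all signals were below 8, where log2(signal + 8) understates change. The ratio of 3' to 5' actin signal, a sign of RNA quality, averaged 6.77, 7.86, 10.3, 12.1, 12.8 and 16.7 at 0.5, 1, 3, 6, 12 and 24 h in shoots for the first of the 2 actin designs, and lay between 11.1 and 12.3 in roots. For the other actin design it lay between 2.33 and 2.67 in shoots and between 1.74 and 2.14 in roots. The ratio of the first design moved with time in shoots, as the genes described here did, and its part in the results was not tested. Of the 8 genes fixed as markers of green tissue, 6 had a probe set naming them here. Their summed signal was 12710 to 12712 on the 12 h arrays and 25716 to 26529 on the 1 h arrays in shoots, and 612 to 638 at 12 h against 313 to 318 at 1 h in roots. Of the 8 fixed as root markers 2 were named here, PYK10 and EXPA7, with a summed signal of 879 to 1042 at 0.5 h, 438 to 496 at 1 h, 349 to 404 at 3 h, 238 to 318 at 6 h, 216 to 325 at 12 h and 362 to 365 at 24 h in shoots, and of 2738 to 3964 over all root arrays. The summed signal of the green markers was thus highest on the shoot arrays and that of the root markers on the root arrays. The root marker sum was mostly PYK10, with means of 947 in shoots at 0.5 h and 3835 in roots at 12 h. EXPA7 had a mean of 13.1 in shoots at 0.5 h, above its root means of 8.69, 12.6 and 3.91 at 3, 6 and 12 h. At each single time its root mean exceeded its shoot mean. Both root markers in shoots were higher at 0.5 h than at 24 h. The part of tissue make-up in the results was not tested. In whole organs, fewer cells of a type and less RNA per cell cannot be told apart.

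The members' median shoot signal was 21.5, 32.9, 135, 151, 278 and 321 at 0.5, 1, 3, 6, 12 and 24 h. In roots the medians at the same times were 47.8, 56.8, 51.5, 57.6, 51.1 and 52.4. The number of members with a mean shoot signal of at least 50 was 10, 24, 48, 51, 58 and 67 at these times, while in roots it stayed between 33 and 36. The shoot values at 24 h and 0.5 h, and the closeness of the root values at these times, are what chose the members and are given as a description. Because the choice rests on the 0.5 h and 24 h arrays, tests below compare only the arrays of 1, 3, 6 and 12 h. The arrays compared entered the choice through the signal minimum alone. The fit covered all 24 arrays, so those of 0.5 h and 24 h entered its estimate of spread and with it every SE and p-value. The arrays compared also belong to the same courses over time, and the comparisons with 1 h share the 1 h arrays.

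**Figure D1:**
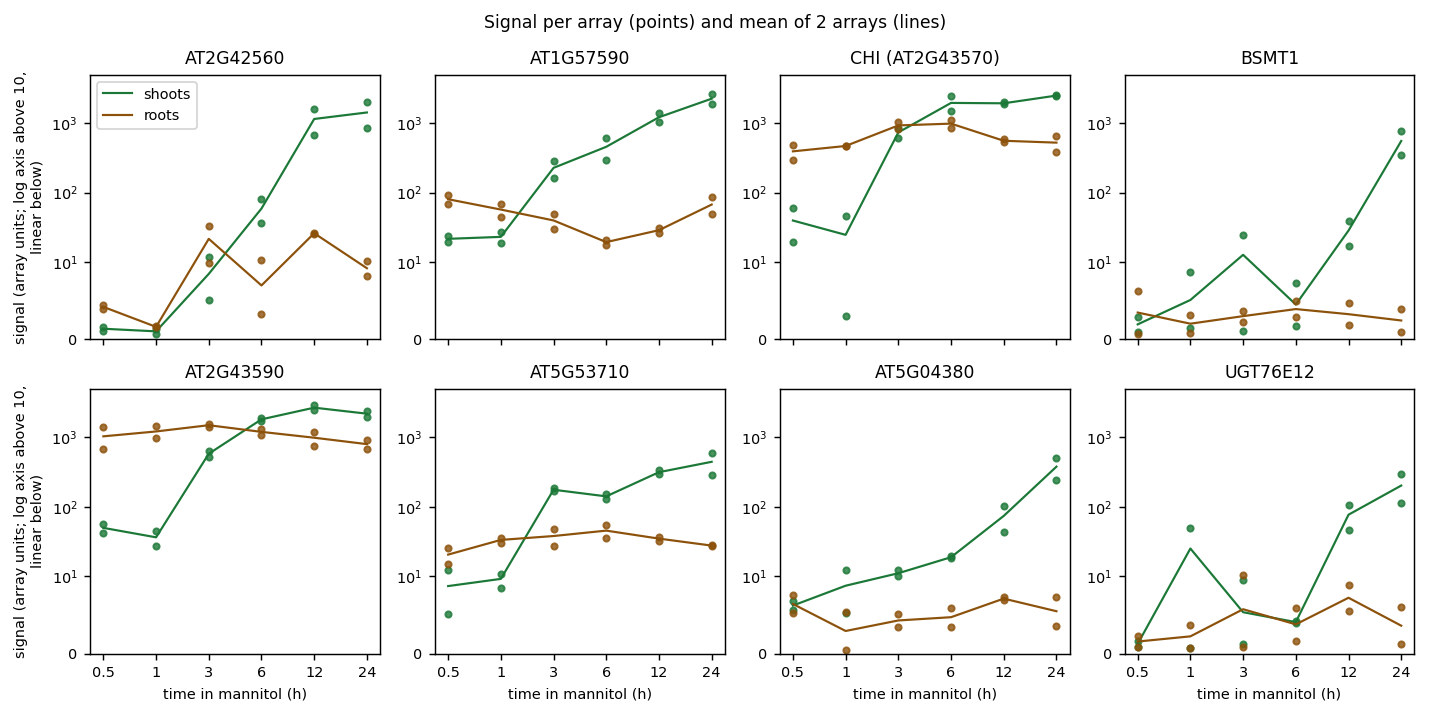
Signal (symmetric log axis, linear below 10) against hours in mannitol for the 8 genes with the largest difference between 24 h and 0.5 h in shoots. Points are single arrays and lines join the means of 2 arrays, for shoots and for roots. In shoots AT1G57590 reached 2587 and 1903 at 24 h, while in roots it stayed between 17.8 and 91.7; AT2G43590 and CHI were already bright in roots, and BSMT1 stayed below 40 in shoots until 12 h and reached 758 and 346 at 24 h.

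Between 1 h and 12 h in mannitol, 64 of the 67 members were higher and 1 was lower in shoots at 12 h, with a median log2 change of 2.39 (limma, Benjamini-Hochberg adjusted p under 0.05). Over all 16814 probe sets tested, 23.8% were higher and 27.0% lower in the same comparison, with a median of -0.05. In shoots both 12 h arrays lay above both 1 h arrays for 65 members, against 34.6% of all tested probe sets. In roots 4 members were higher and 1 was lower at 12 h than at 1 h, where 13.5% of all tested probe sets were higher and 15.7% lower; the members' median change was 0.05. Of these 5 root calls, 1 was kept without the replicate 2 root array of 1 h, 2 without either 12 h root array and 3 without the replicate 1 root array of 1 h, where AT4G23050 was called in addition. Both 12 h root arrays lay above both 1 h root arrays for 24 members, against 32.1% of all tested probe sets.

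The difference between the tissues was tested directly as the shoot change minus the root change. From 1 h to 12 h this difference was above 0 for 57 members and below 0 for 1, with a median of 2.34, where 15.6% of all tested probe sets were above 0 and 16.1% below (limma, adjusted p under 0.05). The other 9 members did not pass this test. They were WSD1, AT3G53400, AT5G04010, AT3G56260, BSMT1, UGT76E12, AT2G17680, AT4G26950 and AT3G60420, with differences between 0.30 and 1.34. The calls for AT3G03620, AT5G37550, AT4G13800, AT5G04380, AT4G17470, AT1G10050, AT3G61930 and AT5G44310 were lost when some single array of the 8 compared was left out. Members called higher in shoots and not called in roots numbered 59, where 15.6% of all tested probe sets had these calls. AT4G39670 was called higher in shoots and lower in roots, as were 1.14% of all. The 4 members called higher in both tissues compare with 6.99% of all.

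**Figure D2:**
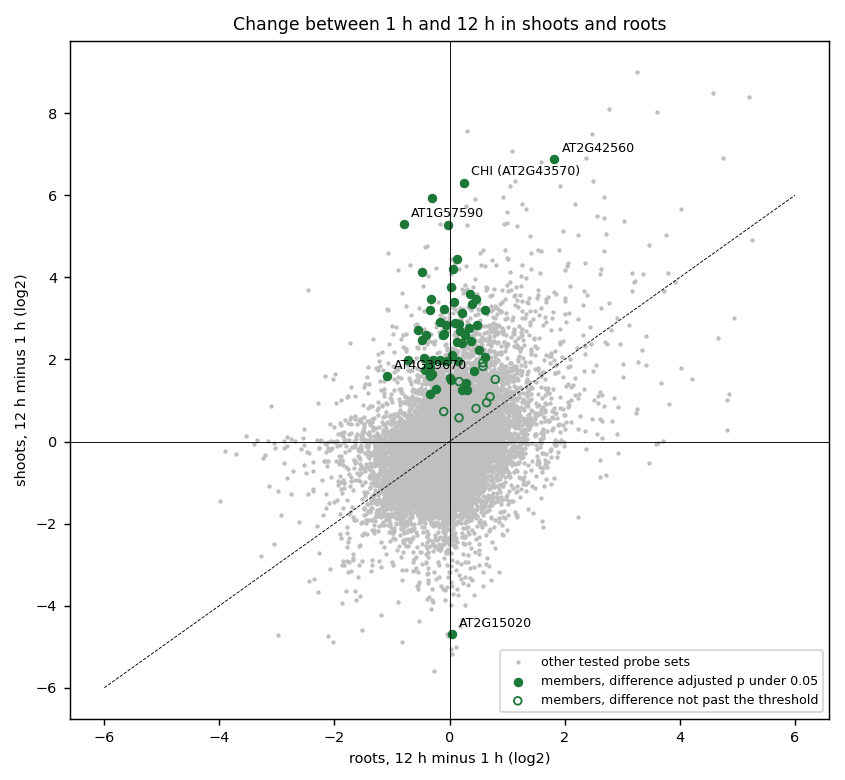
Log2 change from 1 h to 12 h in mannitol in shoots (vertical axis) against that in roots (horizontal axis) for all tested probe sets (grey) and the 67 members. Filled points are the 58 members whose shoot and root changes differed (limma, adjusted p under 0.05), open points the other 9, and the dashed line marks equal change. Members lie above the line with root changes between -1.09 and 1.82, apart from AT2G15020 far below it at -4.69 in shoots.

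The rise in shoots was under way by 3 h. At 3 h against 1 h, 47 members were higher in shoots and 1 was lower, with a median change of 1.21, where 13.4% of all tested probe sets were higher and 16.6% lower (limma). At 6 h against 1 h, 53 were higher and 1 lower, with a median of 1.69, beside 20.6% and 24.8% of all. The member that was lower at each of these times was AT2G15020. In roots 2 members were higher and 0 lower at 3 h, beside 4.80% and 5.16% of all probe sets, and the members' median change was 0.04; at an unadjusted p under 0.05 they were 7 and 2. In roots at 6 h, 2 members were higher and 2 lower, beside 10.8% and 11.9% of all. Of the 4 root calls of 6 h, 0 were kept without the replicate 2 array of 1 h or the replicate 1 array of 6 h, 1 without the replicate 2 array of 6 h and 2 without the replicate 1 array of 1 h. Of the 2 of 3 h, 0 were kept without either 1 h array and 1 without either 3 h array. AT3G60420 was called in addition at 3 h and at 6 h without the replicate 1 array of 1 h, and AT4G30470 at 3 h without the replicate 2 array of 3 h. The shoot change exceeded the root change for 36 members at 3 h and for 44 at 6 h and was smaller for 1 at each time, where 7.51% of all probe sets were above 0 and 7.26% below at 3 h, and 11.7% and 12.9% at 6 h.

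Members differed in when they left their starting level. The mean signal on the log2 scale first passed the midpoint between the 0.5 h and 24 h values at 1 h for 5 members, at 3 h for 28, at 6 h for 14, at 12 h for 16 and only at 24 h for 4. The highest shoot mean fell at 24 h for 46 members, at 12 h for 14, at 6 h and at 3 h for 3 each and at 1 h for 1. The 4 members of 24 h were BSMT1, AT3G03620, AT2G17680 and AT3G22620. AT2G17680 had signals of 145 and 82.6 on the 24 h shoot arrays and 10.02 and 13.5 on the 0.5 h arrays. At 12 h it had 16.9 and 16.7 in shoots, against 9.81 and 7.49 at 1 h. The change of 0.58 ± 0.22 (SE; limma adjusted p = 0.0362) was lost when any single 1 h or 12 h shoot array was left out.

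**Figure D3:**
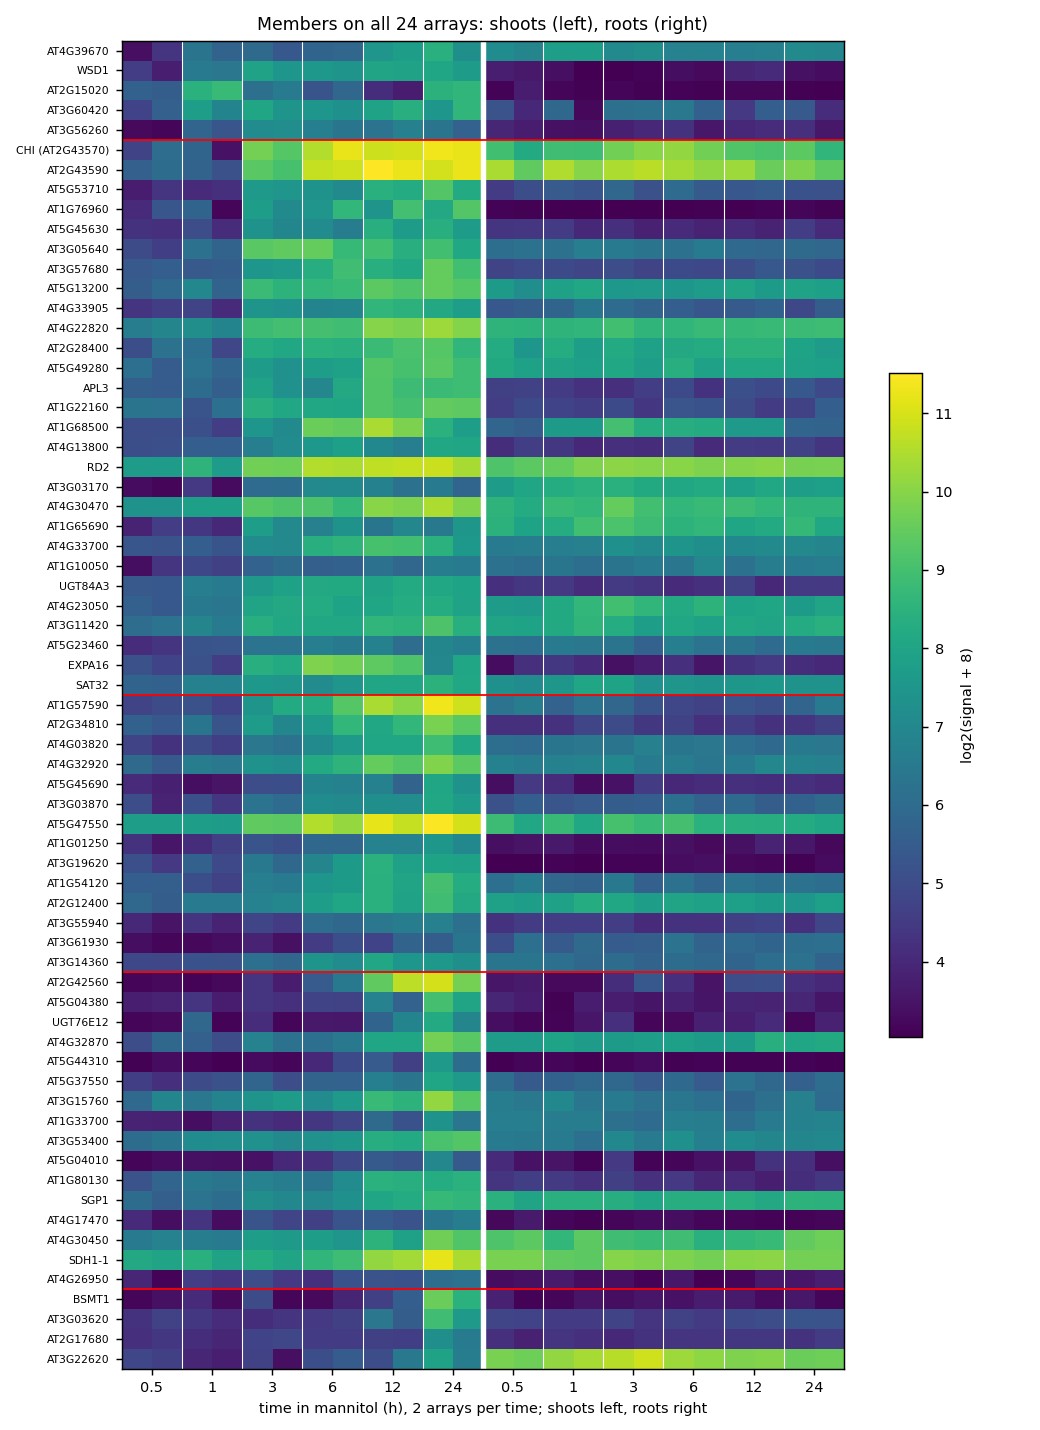
Log2(signal + 8) of the 67 members (rows) on the 24 arrays (columns), shoots left and roots right, 2 arrays per time from 0.5 to 24 h. Rows are ordered by the time at which the shoot mean first passed the midpoint of its difference between 0.5 h and 24 h, and red lines separate the 5 members of 1 h, the 28 of 3 h, the 14 of 6 h, the 16 of 12 h and the 4 of 24 h. Shoot columns brighten over time while the root columns of most rows stay at about 1 colour, dark for some members and bright for others.

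Of all 67 members, 64 were called higher in shoots from 1 h to 12 h, with a median change of 2.39, and 5 were called in roots. Over all tested probe sets 23.8% were called higher in shoots. The counts by role that follow were not tested against these and set no role apart. Among genes known for protection against water loss, all 4 rose in shoots between 1 h and 12 h. AT2G42560, a late embryogenesis abundant protein, had the largest shoot difference of all members between 24 h and 0.5 h, 7.13 on the log2 scale. Its shoot signals were 1.09 and 1.60 at 0.5 h, 0.652 and 1.36 at 1 h, 11.8 and 5.08 at 3 h, 36.6 and 80.9 at 6 h, 683 and 1608 at 12 h, and 1994 and 848 at 24 h. It was near the floor of the arrays until 3 h and stood apart from its early values on every array from 6 h on. The change from 1 h to 12 h in shoots was 6.88 ± 0.45 (SE; limma adjusted p = 1.6e-09), 7.49 without the replicate 1 array of 12 h and 6.26 without the replicate 2 array.

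AT2G42560 was not still in roots between the times that chose it. Its root signals were 25.4 and 26.4 at 12 h, against 1.52 and 1.65 at 1 h. The log2 change was 1.82 ± 0.45 (limma adjusted p = 0.00573). Like all 5 root calls of 12 h, it was not called under every alternative tried, and its 1 h root signals lay near the array floor. Its root signals were 10.2 and 8.15 at 24 h, beside 3.87 and 4.48 at 0.5 h. At 3 h the root arrays read 9.80 and 33.2, a change of 1.499 over 1 h that passed the test (limma adjusted p = 0.0417) and was lost when the replicate 2 array of 3 h (0.89) or either 1 h array was left out. The shoot change from 1 h to 12 h exceeded the root change by 5.05 ± 0.63 (limma adjusted p = 1.3e-05), by 5.67 without the replicate 1 shoot array of 12 h and by 4.44 without the replicate 2 array. With a root difference of 0.495 between 24 h and 0.5 h, AT2G42560 lay just inside the limit of 0.5.

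The other gene of the late embryogenesis abundant group, AT5G44310, had 189.5 and 57.1 on the 24 h shoot arrays and 0.577 and 2.06 on the 0.5 h arrays. At 12 h its shoot arrays read 36.7 and 17.2, against 1.02 and 0.273 at 1 h. The change was 1.96 ± 0.39 (SE; limma adjusted p = 0.00047). It was at or below 1.89 on every root array, among the lowest root signals of all members. RD2, a desiccation-responsive gene, was bright in both tissues: in shoots it read 1661 and 1729 at 12 h, against 371 and 199 at 1 h. In roots it read 979 and 1022 at 12 h, against 732 and 942 at 1 h. Its shoot arrays did not overlap between the times, and its shoot change of 2.60 ± 0.20 exceeded that in roots by 2.34 ± 0.28 (limma adjusted p = 9.1e-06). SAT32, a gene known for a role in salt tolerance, changed by 1.29 ± 0.19 in shoots (limma adjusted p = 2e-05), with 259 and 253 at 12 h and 99.9 and 100.3 at 1 h. In roots it read 177 and 181 at 12 h, between the 1 h values of 176 and 256.

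All 4 genes of cell wall enzymes and expansins rose in shoots between 1 h and 12 h, with a median change of 3.66, and for all 4 the shoot change exceeded the root change. In roots limma called 0 of the 4, and 1 had an unadjusted p under 0.05. AT1G57590, a pectin acetylesterase, which removes acetyl groups from the pectin of the wall, had shoot signals of 19.4 and 23.7 at 0.5 h, 27.0 and 18.9 at 1 h, 164 and 289 at 3 h, 295 and 616 at 6 h, 1397 and 1030.4 at 12 h, and 2587 and 1903 at 24 h. Each mean exceeded the one before it from 1 h on, and no array of 3 h or later overlapped those of 0.5 h and 1 h. Its change from 1 h to 12 h was 5.30 ± 0.34 in shoots (SE; limma adjusted p = 1.4e-09).

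In roots AT1G57590 went the other way in the middle of the course. It read 20.8 and 17.8 on the 6 h root arrays, against 44.6 and 69.0 at 1 h, a log2 change of -1.22 (limma adjusted p = 0.0152) that was lost when the replicate 2 array of 1 h or either 6 h array was left out. At 12 h its root signals were 30.9 and 26.4, a change of -0.80 ± 0.34 that missed the threshold (limma adjusted p = 0.0852), and at 24 h they were 48.6 and 85.6. The shoot change from 1 h to 12 h exceeded the root change by 6.10 ± 0.48 (limma adjusted p = 1.3e-07).

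EXPA16, an expansin, a protein that loosens the wall during growth, peaked in shoots at 6 h. Its shoot signals were 27.5 and 19.1 at 0.5 h, 27.5 and 16.1 at 1 h, 327 and 292 at 3 h, 926 and 834 at 6 h, 681 and 574 at 12 h, and 118 and 260.3 at 24 h. The 6 h arrays were the highest, and both 24 h arrays lay below those of 3 h. The change from 1 h to 12 h was 4.44 ± 0.32 in shoots (limma adjusted p = 6.8e-09) and 0.12 ± 0.32 in roots (limma adjusted p = 0.811), where no array exceeded 13.8.

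AT3G19620, of the beta-xylosidase family of glycosyl hydrolases, had 344 and 232 on the 12 h shoot arrays and 43.7 and 22.1 on the 1 h arrays. That is a change of 2.88 ± 0.29 (limma adjusted p = 2.5e-07), and its signal was between 0.408 and 2.39 on the root arrays. AT1G10050, a xylanase, had 65.2 and 49.4 in shoots at 12 h, against 21.6 and 16.8 at 1 h. In roots it had 67.1 and 91.7 at 12 h, against 72.5 and 60.2 at 1 h. Its shoot arrays rose toward the root level, and at 12 h shoots and roots did not pass the test against each other (-0.42 ± 0.26, limma adjusted p = 0.176).

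The 9 genes of defence and specialised metabolism all rose in shoots between 1 h and 12 h, with a median change of 2.22, beside 2.39 for all 67 members. In roots limma called 0 of the 9, and 0 had an unadjusted p under 0.05. CHI and AT2G43590, both of the chitinase family of enzymes that cut the chitin of fungal walls, are near neighbours, with 1 protein-coding gene between them on chromosome 2 in the TAIR10.1 gene table. CHI had shoot signals of 19.5 and 59.5 at 0.5 h, 46.2 and 2.93 at 1 h, 859 and 608 at 3 h, 1472 and 2430.1 at 6 h, 1874 and 1979 at 12 h, and 2562 and 2415 at 24 h. AT2G43590 had 42.2 and 57.7 at 0.5 h, 45.4 and 27.6 at 1 h, 648 and 519 at 3 h, 1739 and 1911 at 6 h, 2923 and 2454 at 12 h, and 1969 and 2435 at 24 h. Both genes were far above their early values on all shoot arrays from 3 h on.

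In roots both chitinase genes were bright from the start. CHI read 581 and 531 on the 12 h root arrays and 475 and 460.2 at 1 h, with a change of 0.24 ± 0.52 (limma adjusted p = 0.764), and AT2G43590 read 1219 and 766 at 12 h and 1450.3 and 993 at 1 h, with a change of -0.31 ± 0.30 (limma adjusted p = 0.472). At 12 h CHI and AT2G43590 were higher in shoots than in roots, by 1.78 ± 0.52 and 1.46 ± 0.30 on the log2 scale. At 1 h they had been lower, with shoot minus root differences of -4.29 ± 0.52 and -4.79 ± 0.30 (limma). The shoot change from 1 h to 12 h was 6.31 ± 0.52 for CHI and 5.94 ± 0.30 for AT2G43590 (limma adjusted p = 2.9e-08 and 9e-11). For CHI it was 7.47 without the replicate 1 array of 1 h and 5.16 without the replicate 2 array, whose signals were 46.2 and 2.93. The shoot change exceeded the root change by 6.07 ± 0.74 for CHI (limma adjusted p = 9.8e-06), or by 7.22 and 4.91 without those arrays, and by 6.25 ± 0.42 for AT2G43590 (limma adjusted p = 2.9e-08).

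BSMT1, a methyltransferase that makes volatile esters of salicylate and benzoate, and AT5G04380, of the same enzyme family, came up late. BSMT1 had shoot signals of 0.973 and 2.85 at 0.5 h, 8.66 and 1.48 at 1 h, 24.3 and 1.08 at 3 h, 1.67 and 7.30 at 6 h, 17.2 and 39.5 at 12 h, and 758 and 346 at 24 h. Its change from 1 h to 12 h of 1.46 ± 0.50 passed the test (limma adjusted p = 0.0203) but not without the replicate 2 shoot array of 1 h (1.05) or of 12 h (1.004), and the excess over the root change did not pass (1.30 ± 0.70, limma adjusted p = 0.173). No root array exceeded 6.19. AT5G04380 had 515 and 246 at 24 h and 5.59 and 6.85 at 0.5 h in shoots, and 105 and 43.9 at 12 h against 12.4 and 5.19 at 1 h. The log2 change was 2.22 ± 0.35 (limma adjusted p = 4.3e-05). In roots it was at or below 7.55 on every array.

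Both UDP-glycosyltransferases, enzymes that add sugars to small molecules, were low in roots. UGT84A3 had 238 and 292 on the 12 h shoot arrays and 94.4 and 83.2 at 1 h. Its log2 change was 1.49 ± 0.19 (limma adjusted p = 4.7e-06), and its signal did not exceed 17.6 in roots. UGT76E12 read 294 and 112 at 24 h and 0.907 and 1.60 at 0.5 h in shoots, and 46.8 and 108 at 12 h against 49.7 and 0.694 at 1 h. Its arrays overlapped between 12 h and 1 h, and its change of 1.83 ± 0.64 (limma adjusted p = 0.024) was 3.19 without the replicate 1 array of 1 h, 0.47 without the replicate 2 array of 1 h (limma adjusted p = 0.535) and 1.29 without the replicate 2 array of 12 h (limma adjusted p = 0.197).

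The remaining 3 genes of the group are AT2G34810, of the berberine bridge enzyme family, AT5G47550, a cystatin, which inhibits cysteine proteases, and AT4G30470, of the cinnamoyl-CoA reductase family. AT2G34810 had 270.3 and 394 in shoots at 12 h and 72.1 and 30.1 at 1 h. This was a change of 2.60 ± 0.37 (limma adjusted p = 1.6e-05), and its signal stayed between 10.1 and 24.6 in roots. AT5G47550 had 2332 and 1755 at 12 h and 214 and 204 at 1 h in shoots, a change of 3.23 ± 0.25 (limma adjusted p = 1.6e-08), against 330.3 and 311 at 12 h and 431 and 270.5 at 1 h in roots. It was among the brightest members in shoots, while its root arrays of the 2 times overlapped. AT4G30470 had 1022 and 930.4 at 12 h and 221 and 219.7 at 1 h in shoots. That is a change of 2.105 ± 0.19 (limma adjusted p = 9.3e-08).

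All 8 genes of lipids and membranes rose in shoots between 1 h and 12 h, with a median change of 1.95, and in roots 1 rose and 1 fell. WSD1, the wax ester synthase of the cuticle, had shoot signals of 15.9 and 5.60 at 0.5 h, 82.7 and 77.3 at 1 h, 236 and 171 at 3 h, 182 and 165 at 6 h, 249 and 238 at 12 h, and 254 and 204 at 24 h. It was near its 24 h level from 3 h on, and the change from 1 h to 12 h was 1.51 ± 0.22 (limma adjusted p = 1.7e-05). In roots it stayed at or below 9.10, with 7.64 and 9.10 at 12 h and 2.62 and 0.395 at 1 h, a change of 0.79 ± 0.22 (limma adjusted p = 0.0113) that was lost when the replicate 2 root array of 1 h or of 12 h was left out. The excess of its shoot change over its root change was 0.72 ± 0.31 and did not pass (limma adjusted p = 0.0844).

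AT4G39670, of the glycolipid transfer protein family, was the 1 member called in opposite directions. It had 169 and 209 in shoots at 12 h and 70.2 and 45.5 at 1 h. Its log2 change was 1.60 ± 0.31 (limma adjusted p = 0.00035). In roots it had 92.7 and 98.8 at 12 h and 215 and 209.9 at 1 h, a change of -1.09 ± 0.31 (limma adjusted p = 0.0144) that was lost when any single 1 h or 12 h root array was left out, with values from -1.13 to -1.05. The arrays of the 2 times did not overlap in either tissue, and the shoot change exceeded the root change by 2.69 ± 0.44 (limma adjusted p = 0.00018). The same gene fell by 0.98 in roots at 6 h against 1 h (limma adjusted p = 0.0315), a call that was also lost on leaving out any 1 of the 4 arrays.

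AT3G22620, of the lipid transfer protein family, was the member with the strongest preference for roots. It had 25.4 and 80.0 on the 12 h shoot arrays and 7.53 and 5.47 at 1 h, a change of 1.91 ± 0.42 (limma adjusted p = 0.00098) that was 2.60 without the replicate 1 array of 12 h and 1.21 without the replicate 2 array, and it reached 235 and 91.0 at 24 h. In roots it was between 774 and 1896 on every array. Its shoot minus root difference was -4.14 ± 0.42 at 12 h and -6.41 ± 0.42 at 1 h (limma adjusted p = 1.4e-07 and 2.7e-10).

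AT1G33700, of the glucosylceramide beta-glucosidase family, had 55.2 and 28.1 in shoots at 12 h and 2.15 and 6.07 at 1 h. The log2 change was 1.998 ± 0.28 (limma adjusted p = 1.5e-05), and its signal stayed between 55.6 and 106 in roots. AT3G14360, a lipase, had 265 and 171 in shoots at 12 h and 28.0 and 27.4 at 1 h. This was a change of 2.63 ± 0.21 (limma adjusted p = 1.8e-08). AT5G13200, a GRAM domain protein, had 654 and 573 at 12 h and 120.5 and 45.2 at 1 h, a change of 2.91 ± 0.28 (limma adjusted p = 1.4e-07), or 3.54 and 2.27 without the replicate 1 and the replicate 2 array of 1 h. In these 3 genes no shoot array of 12 h overlapped those of 1 h. The other 2, AT3G55940, a phosphoinositide-specific phospholipase C, and AT4G17470, a thioesterase, changed by 2.41 ± 0.25 and 1.56 ± 0.31 in shoots (limma adjusted p = 4.8e-07 and 0.00042).

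In carbon metabolism both members rose in shoots. APL3, a large subunit of ADP-glucose pyrophosphorylase, the enzyme that commits sugar to starch, had shoot signals of 40.5 and 38.0 at 0.5 h, 58.3 and 41.1 at 1 h, 235 and 155 at 3 h, 116 and 277 at 6 h, 588 and 453 at 12 h, and 444 and 462 at 24 h. Its 12 h and 24 h arrays lay above all earlier ones, and its change from 1 h to 12 h was 3.20 ± 0.31 in shoots (limma adjusted p = 1.9e-07) and 0.62 ± 0.31 in roots (limma adjusted p = 0.145), where it read 26.6 and 21.8 at 12 h and 14.7 and 11.2 at 1 h. SDH1-1, the flavoprotein subunit of succinate dehydrogenase in the mitochondrial respiratory chain, rose later: its shoot arrays read 333 and 238 at 1 h, 304 and 249 at 3 h, and 1124 and 1295 at 12 h. Its change was 2.07 ± 0.19 in shoots (limma adjusted p = 1.1e-07) and 0.62 ± 0.19 in roots (limma adjusted p = 0.0219). The root call was lost when any single root array of 1 h or 12 h was left out, and the shoot change exceeded the root change by 1.45 ± 0.27 (limma adjusted p = 0.0006).

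Of the 9 regulators, 8 rose in shoots between 1 h and 12 h, with a median change of 2.72. In roots limma called 0 of the 9, and 1 had an unadjusted p under 0.05. AT3G05640, a protein phosphatase 2C, of a large family some of whose members restrain abscisic acid signalling, had shoot signals of 23.5 and 16.4 at 0.5 h, 65.3 and 45.1 at 1 h, 641 and 694 at 3 h, 717 and 417 at 6 h, 493 and 328 at 12 h, and 492 and 271 at 24 h. It reached its highest shoot mean at 3 h, and its change from 1 h was 3.44 ± 0.28 at 3 h and 2.72 ± 0.28 at 12 h (limma adjusted p = 1.7e-07 and 3.4e-07). In roots it was between 48.9 and 93.6 on every array. AT4G23050, a PAS domain protein kinase, was also early, with shoot signals of 80.7 and 74.3 at 1 h, 247 and 279 at 3 h, and 249.9 and 306 at 12 h. Its roots read between 187 and 492.

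AT5G45630, AT2G28400 and AT4G26950 belong to a family named senescence regulators. AT5G45630 had 327 and 202 in shoots at 12 h and 24.8 and 9.46 at 1 h. That is a change of 3.47 ± 0.32 (limma adjusted p = 9.9e-08), and its signal did not exceed 15.7 in roots. AT2G28400 had 447 and 533 at 12 h and 62.5 and 20.5 at 1 h, also a change of 3.47, with an SE of 0.38 (limma adjusted p = 6.7e-07), or 4.12 and 2.81 without the replicate 1 and the replicate 2 array of 1 h. Its roots read between 171 and 353. AT4G26950 had 28.7 and 28.5 at 12 h and 15.7 and 12.5 at 1 h, and its change of 0.73 ± 0.32 did not pass (limma adjusted p = 0.0678). Its highest shoot signals were those of 24 h, 61.0 and 66.1, close to the signal minimum of 50.

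AT1G01250, of the AP2/ERF family of transcription factors, had 102 and 103 in shoots at 12 h and 9.83 and 16.9 at 1 h. Its log2 change was 2.39 ± 0.26 (limma adjusted p = 6.5e-07), and its signal did not exceed 6.96 in roots. AT4G22820, an A20/AN1 zinc finger protein of a family tied to stress tolerance, had 998 and 908 in shoots at 12 h and 142 and 109 at 1 h. This was a change of 2.86 ± 0.15 (limma adjusted p = 1.4e-10), and in roots 408 and 427 at 12 h and 364 and 384 at 1 h. AT1G22160, of the FLZ zinc finger family, changed by 3.41 ± 0.28 in shoots (limma adjusted p = 2.5e-08), with 586 and 506 at 12 h and 30.3 and 62.6 at 1 h. In each of these genes the shoot arrays of the 2 times were far apart. SGP1, a small GTPase, changed by 1.997 ± 0.18 (limma adjusted p = 6.8e-08), and its shoot signals of 261 and 297 at 12 h came close to its root signals of 319.9 and 278.

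All 3 transport genes rose in shoots between 1 h and 12 h. AT4G33905, of a family of peroxisomal membrane proteins, had 384 and 355 at 12 h and 19.5 and 8.81 at 1 h, a change of 4.13 ± 0.25 (limma adjusted p = 7e-10), against 35.5 and 43.6 at 12 h and 46.1 and 72.0 at 1 h in roots. AT3G03620, of the MATE family of efflux carriers, was late, with shoot signals of 13.2 and 9.28 at 1 h, 77.0 and 38.6 at 12 h, and 479 and 185 at 24 h. Its change from 1 h to 12 h was 1.72 ± 0.33 (limma adjusted p = 0.00028). AT4G13800, of a magnesium transporter family, changed by 1.27 ± 0.23 (limma adjusted p = 0.00022), with 121 and 92.9 at 12 h and 39.2 and 39.6 at 1 h, below its 6 h signals of 181 and 221.

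No role was given for 28 members, of which 26 rose and 1 fell in shoots between 1 h and 12 h, with a median change of 2.25. AT1G68500 was the one with the largest movement in roots. Its shoot signals were 24.9 and 25.02 at 0.5 h, 26.6 and 16.1 at 1 h, 174 and 125 at 3 h, 773 and 711 at 6 h, 1385 and 905 at 12 h, and 342 and 209 at 24 h. Its root signals were 48.3 and 40.3 at 0.5 h, 196 and 192 at 1 h, 504 and 302 at 3 h, 311 and 295 at 6 h, 189.7 and 191 at 12 h, and 48.5 and 45.4 at 24 h. It thus had a peak in each tissue, at 3 h in roots and at 12 h in shoots, and the root arrays of 24 h and 0.5 h, which the choice rested on, nearly coincided.

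The change of AT1G68500 in roots from 1 h to 3 h was 0.98 (limma adjusted p = 0.0197), a call lost when the replicate 1 array of 3 h (0.62) or either 1 h array was left out. From 1 h to 12 h it changed by 5.29 ± 0.25 in shoots and by -0.03 ± 0.25 in roots (limma adjusted p = 4.6e-11 and 0.948), and the difference was 5.32 ± 0.36 (limma adjusted p = 2.7e-08). The range of its group means over the 6 root times was 2.93 on the log2 scale, the widest of the members. A range over 1 was found for 8 members in all, the others being AT2G42560 at 1.82, AT1G57590 at 1.68, AT3G60420 at 1.64, CHI at 1.34, AT4G23050 and AT3G22620 at 1.12 each and AT4G39670 at 1.09. The median range of the 67 was 0.56.

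AT2G15020 was the only member called lower in shoots at 12 h than at 1 h. Its shoot signals were 43.6 and 38.8 at 0.5 h, 347 and 419.9 at 1 h, 63.3 and 85.9 at 3 h, 29.9 and 48.9 at 6 h, 9.60 and 4.99 at 12 h, and 349 and 382 at 24 h. The 1 h and 24 h arrays were high and all others low, so this gene is not one that climbed over the day. Its change from 1 h to 12 h was -4.69 ± 0.22 in shoots (limma adjusted p = 4.6e-11), and it did not exceed 4.91 on any root array.

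Other members with no role given were also among the strongest. AT5G53710 had 338 and 295 in shoots at 12 h and 8.53 and 10.8 at 1 h, a change of 4.198 ± 0.30 (limma adjusted p = 5.3e-09), against 32.7 and 37.2 at 12 h and 36.3 and 30.7 at 1 h in roots. Its shoot arrays read 602 and 291 at 24 h and 5.16 and 12.3 at 0.5 h. AT4G33700 changed by 3.59 ± 0.20 (limma adjusted p = 2.9e-10), with 518 and 493 at 12 h and 40.1 and 29.9 at 1 h. In roots the same gene had 163 and 145 at 6 h and 93.2 and 98.8 at 1 h, a change of 0.64 (limma adjusted p = 0.0291) that was lost when either 1 h array or either 6 h array was left out. AT4G32870 was a late one, with shoot signals of 41.5 and 25.3 at 1 h, 255 and 252 at 12 h, and 858 and 649.6 at 24 h. Its shoot and root signals met at 12 h, where the roots had 197 and 316.

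AT1G76960 read at most 0.985 on any root array, among the lowest root signals of the members. Its shoot signals were uneven between replicates: 166 and 503 at 12 h, and 46.6 and 0.872 at 1 h. The change of 3.76 ± 0.65 (limma adjusted p = 0.00011) was 5.07 and 2.45 without the replicate 1 and the replicate 2 array of 1 h, and 4.54 and 2.98 without those of 12 h. AT3G60420 had 235 and 321 in shoots at 12 h and 215 and 109 at 1 h, a change of 0.80 ± 0.67 that did not pass (limma adjusted p = 0.342). Its shoot signal had already left the 0.5 h values of 19.1 and 41.6 at 1 h. AT3G56260, with 69.0 and 99.6 at 12 h and 48.5 and 31.5 at 1 h, changed by 0.95 ± 0.27 (limma adjusted p = 0.00762), a call lost without the replicate 2 shoot array of 1 h (0.69) or of 12 h (0.71). It was highest at 3 h, with 133 and 138. AT3G53400 had 134 and 113 in roots at 12 h and 84.1 and 62.4 at 1 h, a change of 0.70 ± 0.20 (limma adjusted p = 0.0129) that was lost without the replicate 2 array of 1 h or the replicate 1 array of 12 h, and its root call at 6 h (0.66, limma adjusted p = 0.0233) was lost without the replicate 2 array of 1 h or the replicate 1 array of 6 h.

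Members differed in their level in roots. In every root group 28 members stayed below a mean signal of 50, 31 stayed at or above it, and 8 crossed it. The shoot mean at 0.5 h lay below every root group mean for 44 members, among them 30 of the 31 that were at or above 50 in all root groups, AT3G15760 being the exception. At 24 h the shoot mean lay above every root group mean for 59 members. It lay below every root group mean for 3, AT3G03170, AT1G65690 and AT3G22620. These counts at 0.5 h and 24 h use the arrays that chose the members and are a description. The choice favours low shoot values at 0.5 h and high ones at 24 h, so the counts do not class the members by tissue. No share over all probe sets is given beside them.

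On the 1 h and 12 h arrays, shoots were also set against roots at the same time. At 1 h, 15 members were higher and 34 lower in shoots than in roots, with a median difference of -0.69, where 23.3% of all tested probe sets were higher and 40.8% lower, with a median of -0.25 (limma). At 12 h, 51 members were higher and 4 lower in shoots, with a median difference of 1.80, where 23.4% of all were higher and 35.6% lower, with a median of -0.17. Scaling every array to the same median moved the medians of all probe sets to -0.09 at 1 h and 0.02 at 12 h and, at 12 h, the share of higher among all calls to 52.8%, beside 39.6% without it; the members' counts were then 16 higher and 32 lower at 1 h, and 52 and 3 at 12 h. Shoots were lower than roots at 1 h and higher at 12 h for 19 members, including both chitinases, AT1G57590, AT5G53710, RD2, SAT32 and AT1G68500, where 2.05% of all tested probe sets had these calls. Another 15 were higher in shoots at both times (16.3% of all), 17 were not called at 1 h and higher at 12 h (5.05% of all), and 4 were lower at both times (25.5% of all): AT1G33700, AT3G03170, AT1G65690 and AT3G22620. The choice asked for a shoot rise beside nearly equal root values, so it favours a shoot minus root difference that grows over the course. These counts therefore do not class the members by tissue either.

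**Figure D4:**
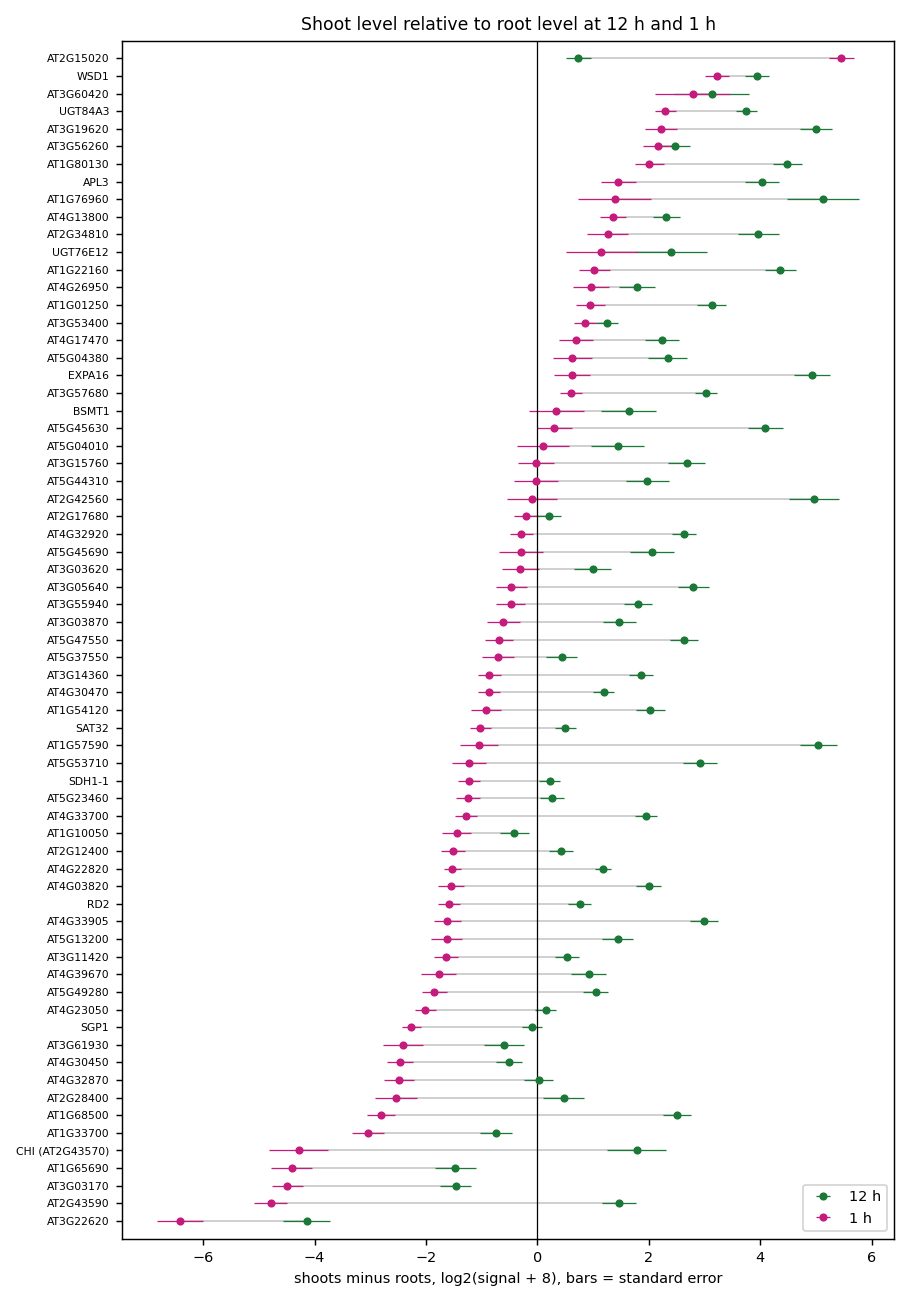
Shoots minus roots in log2(signal + 8) for each of the 67 members at 12 h and at 1 h in mannitol, with bars of 1 SE from limma. At 12 h most points lie above 0 (51 called higher in shoots, 4 lower), whereas at 1 h more lie below 0 (15 called higher, 34 lower); AT2G15020 has the highest value at 1 h, 5.45.

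AT1G65690 and AT3G03170 show the case of members that rose in shoots and still stayed under their root level. AT1G65690 had 73.8 and 117 in shoots at 12 h and 13.2 and 7.89 at 1 h, a change of 2.47 ± 0.36 (limma adjusted p = 2.2e-05), against 255 and 293 in roots at 12 h and 303 and 483 at 1 h. AT3G03170 had 99.98 and 65.3 in shoots at 12 h and 13.8 and 1.82 at 1 h, a change of 2.61 ± 0.28 (limma adjusted p = 5.4e-07), against 217 and 262 in roots at 12 h and 303 and 341 at 1 h. No shoot array of either gene at 1 h or 12 h reached its root arrays of the same time.

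Genes of known pathways were taken from lists, few of whose members have a probe set naming them here. Of 28 genes known to be induced by abscisic acid or dehydration, 5 were named and tested, COR15A, COR15B, COR47, LTI30 and LEA4-5, and none is a member. COR47 and LTI30 met the shoot condition and missed membership by root differences of 0.58 and 0.55 between 24 h and 0.5 h. COR15A and LEA4-5 met it too, with root differences of 2.31 and 2.52. COR15B missed the shoot limit at 1.69. From 1 h to 12 h all 5 were higher in shoots, with a median change of 4.34. In roots 1 of the 5 was higher (COR15A, 2.07 ± 0.51, limma adjusted p = 0.00582), and for all 5 the shoot change exceeded the root change. Of all tested probe sets, 23.8% were higher in shoots, 13.5% were higher in roots and 15.6% had a larger shoot change. LTI30, a dehydrin, had a mean signal of 2882 at 12 h in shoots, against 94.8 at 1 h. In roots it had 3794 at 12 h, against 4271 at 1 h. Of 17 genes of sugar, starch and raffinose metabolism 2 were tested, the member APL3 and APL4, another large subunit of the same enzyme. APL4 rose by 4.07 ± 0.22 in shoots (limma adjusted p = 1.9e-10) and missed membership by its root difference of -0.63 between 24 h and 0.5 h. Of 10 cuticular wax genes only the member WSD1 was named.

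Of 11 senescence genes only SAG29 was tested, which rose in both tissues, by 4.08 in shoots and 3.36 in roots (limma adjusted p = 1.6e-08 and 1.7e-06). Of 12 jasmonate genes PDF1.2 and THI2.1 were tested and rose in shoots, by 1.75 and 1.32 (limma adjusted p = 0.0088 and 0.00403). In roots 0 of the 2 were called, and 0 had an unadjusted p under 0.05. For neither did the shoot change pass the test against the root change (1.62 and 0.94, limma adjusted p = 0.102 and 0.156). PDF1.2 had shoot means of 188 at 0.5 h and 67.6 at 24 h. Of 13 anthocyanin genes 4 were tested, with 2 higher in shoots and 1 in roots, and the test of the difference called 0 of the 4. Of 10 salicylate genes none was named, and of 12 clock genes only GI, which changed by 0.13 in shoots (limma adjusted p = 0.431) and fell by 0.72 in roots (limma adjusted p = 0.00065). Of the green tissue markers 6 of 6 were lower in shoots, with a median of -1.03, and 5 of 6 higher in roots. Of the 2 root markers, PYK10 was lower in shoots and EXPA7 in roots. From 1 h to 12 h, 23.8% of all tested probe sets were higher and 27.0% lower in shoots, and 13.5% higher and 15.7% lower in roots.

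At the edges of the choice, members and others had like values. Just inside the shoot limit of 2.5 were AT3G22620 at 2.53, AT3G14360 at 2.54 and SAT32 at 2.55, and just outside were GRXC1 at 2.48, AT1G72760 at 2.47 and AT5G27930 at 2.45. At the upper root limit RD2, AT2G42560 and APL3 lay inside at 0.496, 0.495 and 0.494, and AT3G51440, CuAO1 and AT3G15350 outside at 0.5003, 0.514 and 0.524. At the lower root limit AT3G14360, WSD1 and AT5G47550 lay inside at -0.37, -0.33 and -0.32, and AT1G67920, NDB2 and APL4 outside at -0.52, -0.53 and -0.63. The members with the lowest peak were AT3G61930 at a highest group mean of 61.3, AT4G26950 at 63.6 and AT5G04010 at 76.5.

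Members lie on all 5 chromosomes, with 11, 9, 18, 15 and 14 on chromosomes 1 to 5 in the TAIR10.1 gene table. These counts and the pairs below are a description, with no share over all genes beside them. Besides the chitinase pair, AT4G30450 and AT4G30470 have 1 protein-coding gene between them. In 3 further pairs 5 such genes lie between the members: BSMT1 and AT3G11420, AT4G32870 and AT4G32920, and AT5G45630 and AT5G45690. In the first of these pairs AT3G11420 rose early, with 324 and 265 in shoots at 3 h and 113 and 87.5 at 1 h, while BSMT1 was highest at 24 h. AT4G32920 had 721 and 596 in shoots at 12 h and 88.5 and 79.6 at 1 h, a change of 2.85 ± 0.21 (limma adjusted p = 8.8e-09), close to the 2.69 ± 0.26 of AT4G32870. AT4G30450 changed by 1.65 ± 0.23 in shoots (limma adjusted p = 1.2e-05), with 358 and 231 at 12 h and 89.0 and 83.3 at 1 h.

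The 2 shoot arrays of 24 h differed in a way that touches the choice. Members were higher on the replicate 1 array than on the replicate 2 array in 55 of 67 cases at 24 h, with a median log2 difference of 0.46, where 43.7% of all tested probe sets were higher on replicate 1. At 1 h, 51 of 67 members were higher on replicate 1, with a median of 0.34, where 51.9% of all were. At 3 h it was 50, with a median of 0.19 (52.0% of all), at 6 h 27, with a median of -0.11 (46.3% of all), and at 0.5 h 35, with a median of 0.007 (49.0% of all). The actin ratio of the first design was lower on replicate 1 at 1, 12 and 24 h (7.05 against 8.67, 10.6 against 14.9 and 14.4 against 18.9). It was higher on replicate 1 at 0.5 and 3 h (7.12 against 6.42 and 10.56 against 10.05) and about equal at 6 h (12.10 against 12.08). Its part in the difference was not tested. Without the replicate 1 shoot array of 24 h, 56 probe sets met the conditions, 54 of them members, and without the replicate 2 array 72 did, 63 of them members. At 12 h, 47 of 67 members were higher on replicate 1, with a median of 0.14 (51.2% of all).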

How the data were processed

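The values the authors deposited are intensity, 1 linear MAS5 signal for each probe set, per the submitters' processing notes. Its version is not given in the sources used here. Total RNA was labelled with biotin, per the labels. Each array's mean after trimming 2% of values at each end was 100.01. Of 22810 probe sets, 64 controls were left out. The values were turned into log2(signal + 8). A probe set was tested where at least 2 of the 24 arrays had it above that array's 40th percentile, which held for 16814. Limma 3.58.1 in R 4.3.3 was fitted to 12 group means with an intensity trend in the variance, on 12 residual degrees of freedom, and each comparison's p-values were adjusted (Benjamini-Hochberg) over these 16814, with calls at 0.05. The fit was tested on simulated data. Standard errors come from limma. The number of arrays, 2 per group, limits the precision.

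The members, the gene lists and the role groups were chosen with earlier results of these data known. Every member could be named, with the shoot arrays of the compared times given for the largest and smallest shoot changes. Genes of the lists and the nearest ones outside each limit were also named. Alternatives were other pseudocounts, filters, quantile normalization, median scaling, a fit of the compared tissue only, a replicate block and leaving out each array. Symbols and gene order come from the TAIR10.1 table.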

Additional observations from a re-analysis of the deposited data

Results flagged for a closer look

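The shoot change differed from the root change, in a test of the difference itself, for 37 members at 3 h, 45 at 6 h and 58 at 12 h, each against 1 h (limma, adjusted p under 0.05). At each time 1 of these, AT2G15020, changed less in shoots. Of all tested probe sets, 7.51% were above 0 and 7.26% below at 3 h, 11.7% and 12.9% at 6 h, and 15.6% and 16.1% at 12 h. Among single members from 1 h to 12 h, the difference was 6.25 for AT2G43590, 6.10 for AT1G57590, 6.07 for CHI, 5.32 for AT1G68500, 5.05 for AT2G42560 and 4.31 for EXPA16, and -4.72 for AT2G15020. The difference for CHI was 4.91 without the replicate 2 shoot array of 1 h and 7.22 without the replicate 1 array. With 2 arrays per group, single arrays that stand apart from the others of their group were not looked for by a test.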

How the results depend on the processing

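Of the 65 members called in shoots between 1 h and 12 h, 61 were called under every alternative tried, as were 50 of the 58 whose shoot change differed from the root change, and 0 of the 5 called in roots. Leaving out each array in turn gave 61 to 64 members in shoots and 51 to 57 for the difference at 12 h. In roots it gave 1 to 4 of members at 12 h, 0 to 3 at 6 h and 0 to 2 at 3 h, with 2721 to 3667 of all probe sets at 12 h (4911 with all arrays), 1855 to 2784 at 6 h (3819) and 633 to 985 at 3 h (1675). For the tissue difference at 3 h it gave 1423 to 1975 of all probe sets (2484). Fewer arrays lower the power, and other causes were not tested. Root members called at 3 h, 2 in all, were 1 with a pseudocount of 32, 1 with no filter on low signal and 8 with the arrays of the compared tissue only. At 12 h they were 3 with a pseudocount of 32, beside 5. A pseudocount of 32 also left 43 probe sets meeting the conditions for membership, 35 of them among the 67, and leaving out single arrays gave 56 to 72; the cause was not tested. The excess of shoot over root change turned negative with a pseudocount of 1 for WSD1 (-0.46), AT3G60420 (-0.30) and AT3G56260 (-0.35). Without single arrays it ranged from -0.12 to 2.61 for UGT76E12 and from -0.97 to 1.66 for AT3G60420. It was negative for UGT76E12 (-0.12) and AT3G60420 (-0.12) without the replicate 2 shoot array of 1 h, and for AT3G60420 without the replicate 1 root array of 1 h (-0.97) or of 12 h (-0.22); none of these had passed the test. Scaling each array to the same median gave, for roots at 3 h, 59.2% higher among all calls, beside 48.2% without it. Low signal limits what can be said of members near the array floor.

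Over 66 pairs of groups, the deviations of replicate 1 from its group mean correlated at -0.17 to 0.35. The median was 0.007, and 13 pairs exceeded 0.1. Shoots and roots of the same time were not looked at apart, so pairing between them by replicate number cannot be judged here. With the replicate number as a block, 65 members were called in shoots at 12 h, 5 in roots and 58 for the difference, the counts found without the block.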

Other observations

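Another 52 probe sets met the numerical conditions but name no gene in the annotation used, and 4 name several, so the 67 members are those that could be named. Across other pseudocounts, scalings and single arrays left out, 14 members met the conditions under all 12 alternatives.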
